A study of Homo sapiens with 24 samples.

Results

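The HIF alpha subunits and the enzymes and adaptors that set their abundance and activity were measured as mRNA in RCC4+VHL cells. This group of 9 genes, out of 23106 gene symbols in the count tables, was defined by symbol: HIF1A, EPAS1 and HIF3A (the alpha subunits), EGLN1, EGLN2 and EGLN3 (the prolyl hydroxylases), HIF1AN (the asparaginyl hydroxylase FIH), VHL (the substrate receptor of the ubiquitin ligase) and CITED2 (a competitor for the CH1 domain of p300/CBP). All 9 symbols had a row in each of the 24 libraries, and 7 of them passed the filter on low counts. HIF3A and EGLN3 did not pass and are given as raw counts.

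RCC4+VHL is a clone of a renal carcinoma line that lacks functional endogenous VHL and was stably transfected with pcDNA3-VHL, so every group carried the transgene. Cells were held at 21% or 0.5% oxygen and given 0.1% DMSO vehicle or 100 nM ITE, a ligand of the aryl hydrocarbon receptor (AHR), each for 6 h and after a period in charcoal-treated serum. Both oxygen levels were combined with both treatments, which gave 4 groups with 6 independent replicates in each (hypoxia + ITE, hypoxia + DMSO, normoxia + ITE and normoxia + DMSO). The comparisons ask whether low oxygen, an AHR ligand or their combination altered the transcripts of the oxygen-sensing machinery itself.

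In oxygenated cells the EGLN enzymes hydroxylate prolyl residues of HIF alpha proteins, and VHL then binds the hydroxylated protein and directs its ubiquitylation and destruction. HIF1AN hydroxylates an asparaginyl residue and so blocks the recruitment of p300/CBP. These controls act on protein, so mRNA levels do not report HIF alpha protein. Of the regulators, EGLN1 and EGLN3 are well-known transcriptional targets of HIF in many cell types, and CITED2 is described as an inducible feedback inhibitor.

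Library totals ran from 770094 counts (hypoxia + DMSO, replicate 2) to 93851342 counts (normoxia + DMSO, replicate 3). Intervals for single counts cover counting error only. The treatments were visible in genes outside the group. All 12 tested genes of a hypoxia check list were higher in hypoxia in both treatments, with a median log2 fold change of 2.04 with DMSO and 1.90 with ITE, against -0.0033 and 0.021 over all genes tested. Of 5 tested AHR targets, 3 were higher with ITE in normoxia, where the median of the list was 1.33, and 2 in hypoxia, where it was 0.67. From these lists of 13 and 6 genes, CA9 and CYP1A1 did not pass the filter on low counts. CA9 was at 0 in 23 libraries, and CYP1A1 was at 0 in 18 with a highest count of 3. Renal epithelial markers were present at unequal levels. PAX8 was at 190.6 to 476.1 CPM (counts per 1000000 counts of the TMM-scaled library) and KRT8 at 498.1 to 1985 CPM. PAX2 was at 17.11 to 63.88 CPM and CDH6 at 1.273 to 27.39 CPM. The leukocyte marker PTPRC and the endothelial marker PECAM1 were at 0 in 23 libraries, with 6 and 22 counts in normoxia + DMSO replicate 4. The muscle marker DES was highest in the same library, with 242 counts. The erythroid marker EPOR was at 0.6835 to 3.093 CPM. Libraries that stood apart in composition were hypoxia + ITE replicates 6 and 3 and hypoxia + DMSO replicate 1, with TMM factors of 0.732, 0.883 and 0.907, while the other libraries lay between 0.946 and 1.09. In hypoxia + ITE replicate 6, transcript GC content and length accounted for 44.06% of the variance of the log2 deviations from the mean of all 24 libraries. These deviations include differences between groups. Results that rest on these libraries are given with and without them.

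The promoter windows of 4 members are shown, those of EGLN1, EGLN2, EGLN3 and CITED2. RefSeq windows of 250 bases before the transcription start were placed on GRCh37 by exact match. Where a gene had several annotated starts, the window of the first listed start is shown. The pentamers ACGTG and GCGTG, the core of the HIF response element, were searched on both strands, and 43.2% of 35116 such windows of annotated genes held at least 1 match. Capitals mark a match (CACGTG holds the core on both strands). The EGLN1 window lies at chr1:231558034-231558283 on the minus strand and holds ACGTG 13 bases before the start. The EGLN2 stretch, at chr19:41304954-41305095 on the plus strand, is the 142 bases of its window that follow an annotated exon and holds CACGTG 49 bases before the start. The EGLN3 window, at chr14:34420281-34420530 on the minus strand, holds no match. The CITED2 window, at chr6:139695786-139696035 on the minus strand, holds CACGTG 153 bases before the start. At other annotated starts, the further CITED2 windows held 1 GCGTG each, and the further EGLN2 window held no match.
EGLN1: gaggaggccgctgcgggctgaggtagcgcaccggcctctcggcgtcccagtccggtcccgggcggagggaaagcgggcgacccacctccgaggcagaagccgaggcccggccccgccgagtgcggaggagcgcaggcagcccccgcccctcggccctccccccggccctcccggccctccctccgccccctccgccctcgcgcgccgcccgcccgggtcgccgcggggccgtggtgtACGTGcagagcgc
EGLN2: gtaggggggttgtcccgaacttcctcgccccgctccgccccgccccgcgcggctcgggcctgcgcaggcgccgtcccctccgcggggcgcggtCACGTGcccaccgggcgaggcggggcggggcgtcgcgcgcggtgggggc
EGLN3: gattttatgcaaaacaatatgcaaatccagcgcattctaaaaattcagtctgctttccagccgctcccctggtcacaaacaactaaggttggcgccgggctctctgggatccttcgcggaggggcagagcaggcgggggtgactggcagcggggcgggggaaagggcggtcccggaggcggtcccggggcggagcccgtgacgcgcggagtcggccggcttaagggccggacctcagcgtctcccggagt
CITED2: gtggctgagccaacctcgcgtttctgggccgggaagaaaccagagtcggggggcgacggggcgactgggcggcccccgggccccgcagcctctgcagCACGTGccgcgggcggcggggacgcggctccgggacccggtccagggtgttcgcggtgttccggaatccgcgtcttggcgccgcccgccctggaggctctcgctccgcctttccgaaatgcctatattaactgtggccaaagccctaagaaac
Of the members not shown, HIF3A, which was nearly undetected, held 3 matches in its first window, and 7.76% of all windows held at least 3. The first HIF1A window and the EPAS1 window held 1 match each, and the HIF1AN window held no match. No VHL window was available. The letters describe these windows and are not evidence of HIF binding there.

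EGLN1 encodes PHD2, the main prolyl hydroxylase acting on HIF-1 alpha in oxygenated cells. It lies at chr1:231499497-231558033 (GRCh37, minus strand, 5 exons). An unnamed protein-coding model on the same strand spans 4294 of its 4335 exonic bases and has no row of its own. EGLN1 rose in hypoxia and was the only member that passed the test in any comparison. In normoxia + DMSO its levels were 125, 136, 138, 138, 141 and 146 CPM, and in hypoxia + DMSO 214, 223, 232, 251, 258 and 271 CPM. The groups did not overlap, as was so for 2.74% of all genes tested. The fitted change was 1.76-fold (log2 0.82 ± 0.11 SE, 95% interval 0.58 to 1.05, edgeR quasi-likelihood adjusted p = 2.50e-05), and higher values were seen in all 6 hypoxic libraries. This was 1 of 7 members tested, in a comparison in which 1.30% of genes were called.

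With ITE present in both arms, a comparison that shares no library with the first, EGLN1 levels were 118, 127, 128, 132, 138 and 141 CPM in normoxia and 129, 195, 217, 218, 231 and 233 CPM in hypoxia. The low hypoxic value was that of replicate 6, and the remaining 5 libraries lay above every normoxic one. The fitted change was 1.56-fold (log2 0.65 ± 0.11 SE, edgeR adjusted p = 7.97e-04). Again 1 of 7 members was called, against 2.35% of all genes. Without hypoxia + ITE replicate 6 the change was 0.75 on the log2 scale (95% interval 0.59 to 0.91). Averaged over the treatments, hypoxia raised EGLN1 1.66-fold (interval 1.48 to 1.86, edgeR adjusted p = 1.97e-07), and 5.01% of genes were called.

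ITE did not detectably alter EGLN1. Its log2 change with ITE was -0.07 in normoxia (interval -0.30 to 0.16) and -0.24 in hypoxia (interval -0.47 to -0.01, unadjusted p = 0.0415, edgeR adjusted p = 0.51). The interaction was -0.17 (interval -0.50 to 0.16, edgeR adjusted p = 0.91), which means that the hypoxic responses with DMSO and with ITE were not shown to differ. Without hypoxia + ITE replicate 6 the ITE effect in hypoxia was -0.14 and the interaction -0.068.

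**Figure D1:**
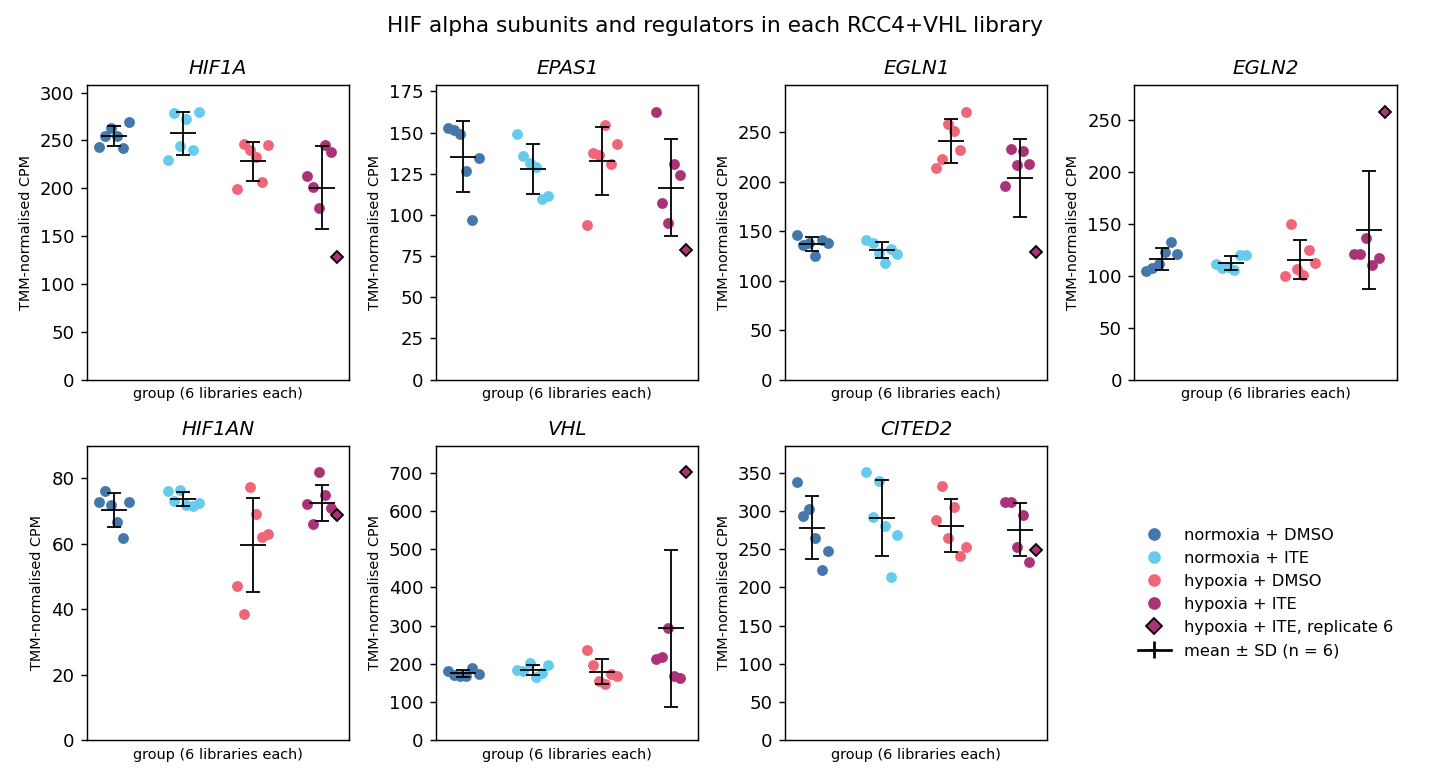
TMM-normalised CPM (linear axes from 0) of the 7 tested members in each library, by group, with points for libraries and bars for mean ± SD (n = 6). EGLN1 lies at 118 to 146 CPM in the 12 normoxic libraries and at 195 to 271 CPM in 11 of the 12 hypoxic ones, and the outlined diamond (hypoxia + ITE replicate 6) is low for HIF1A, EPAS1 and EGLN1 and high for EGLN2 and VHL.

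EGLN3 encodes PHD3, the prolyl hydroxylase that many hypoxic cells induce most strongly. It lies on the minus strand at chr14:34393433-34931980. Its transcript was nearly absent. The count was 0 in 20 libraries and reached 1 in normoxia + ITE replicate 1, 1 in hypoxia + DMSO replicate 5 and 2 in hypoxia + ITE replicate 4. Over the 12 hypoxic libraries, 3 counts among 225840604 gave 0.0133 CPM, here on raw library totals (exact Poisson 95% interval 0.00274 to 0.0388), where EGLN1 gave 230.6. Over 11 normoxic libraries without normoxia + DMSO replicate 4 the value was 0.00408 (0.000103 to 0.0228), so a hypoxic increase was not detectable at this depth, and the hypoxic interval ended at 0.0388 CPM.

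The exception was normoxia + DMSO replicate 4, with 97 counts of EGLN3 (3.72 CPM on the raw total, interval 3.02 to 4.54). That library held other transcripts that were almost missing elsewhere. By a rule chosen after the values were seen (at least 50 counts, with the other 23 libraries together under 10% of that), 28 genes were peculiar to it, and 0 genes met the same rule in any other library. They included the skeletal muscle genes ACTA1 (519 counts against 7 in all other libraries), CKM (210 against 0) and DES (242 against 16), the fibroblast collagen gene COL1A2 (442 against 0) and the carbonic anhydrase gene CA12 (185 against 7). CA9, a further carbonic anhydrase induced by HIF, had 13 counts there and 0 in the other 23 libraries. The rule uses raw counts, so shallower libraries were less able to meet it. The 28 genes made up 0.0168% of normoxia + DMSO replicate 4. Whether these transcripts and EGLN3 share a source was not tested. Without this library the EGLN1 change in hypoxia with DMSO was 0.79 on the log2 scale (edgeR adjusted p = 1.85e-04).

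**Figure D2:**
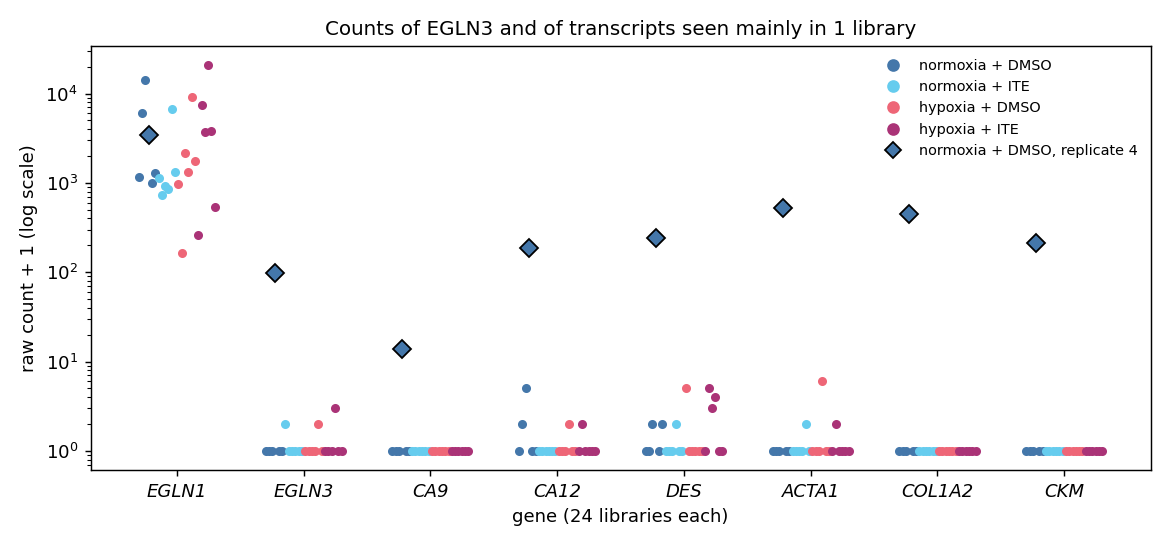
Raw counts plus 1 (log axis) of EGLN1, EGLN3 and 6 transcripts seen mainly in 1 library, each in all 24 libraries and coloured by group. The diamond is normoxia + DMSO replicate 4, which has 97 counts of EGLN3, while the other libraries have 0 to 2, and EGLN1 is counted at 162 or more in every library.

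EGLN2 encodes PHD1, which is regulated by oestrogen in some cells and is not a usual hypoxic target. It lies at chr19:41304901-41314339 (plus strand, 6 exons). The read-through gene RAB4B-EGLN2 spans 2084 of its 2100 exonic bases, has no row of its own and cannot be separated from it. EGLN2 ranged from 105 to 133 CPM in normoxia + DMSO (median 116), 106 to 121 in normoxia + ITE (median 110), 99.7 to 150 in hypoxia + DMSO (median 110) and 111 to 258 in hypoxia + ITE (median 121). The groups overlapped in every comparison. The log2 change was -0.025 for hypoxia with DMSO (interval -0.35 to 0.30) and 0.36 for hypoxia with ITE (interval 0.039 to 0.68, edgeR adjusted p = 0.19). The DMSO value was positive in 5 of 34 alternative fits, and the ITE value in all 34. The value of 258 CPM was that of hypoxia + ITE replicate 6, and the next was 136. Without that library the change with ITE was 0.11 (interval -0.085 to 0.30).

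HIF1A encodes the ubiquitously expressed HIF-1 alpha subunit and lies at chr14:62162231-62214977 (plus strand, 15 exons). Antisense genes overlap it (HIF1A-AS3 spans 3619 of its 3946 exonic bases). They have no rows in the tables, and the strand setting of the counting is not given in the sources used here. HIF1A ranged from 242 to 269 CPM in normoxia + DMSO (median 255) and from 199 to 246 CPM in hypoxia + DMSO (median 236), with a log2 difference of -0.16 (interval -0.40 to 0.083, edgeR adjusted p = 0.73). With ITE the ranges were 229 to 280 CPM in normoxia (median 258) and 128 to 245 CPM in hypoxia (median 207), and the difference was -0.36 (interval -0.60 to -0.12, edgeR adjusted p = 0.096). It was called with DESeq2 (-0.35, adjusted p = 0.041) and without hypoxia + ITE replicate 4 (-0.42, edgeR adjusted p = 0.039) or 5 (-0.41, edgeR adjusted p = 0.042), fits that keep replicate 6, the lowest library. Without replicate 6 it was -0.26 (edgeR adjusted p = 0.16), without the 3 low-factor libraries -0.20 (edgeR adjusted p = 0.23) and with GC and length offsets -0.18 (edgeR adjusted p = 0.36). Normoxic and hypoxic ranges overlapped in both treatments.

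Averaged over treatments the HIF1A difference was -0.26 on the log2 scale (interval -0.43 to -0.087), with an edgeR adjusted p of 0.065 that missed the threshold. DESeq2 gave -0.25 with an adjusted p of 0.026, and limma-voom with library weights gave -0.17 with an adjusted p of 0.027. Leaving out the 3 libraries with the lowest TMM factors gave -0.17 (edgeR adjusted p = 0.041), and leaving out hypoxia + ITE replicate 6 alone gave -0.21 (edgeR adjusted p = 0.031). GC and length offsets gave -0.15 (edgeR adjusted p = 0.18). The sign was negative in all 33 alternative fits, and 6 of them called it. Whether HIF1A passed the threshold thus depended on the fit.

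EPAS1 encodes HIF-2 alpha, the subunit most linked to the growth of clear cell renal carcinoma. It lies at chr2:46520806-46613836 (plus strand, 16 exons). Its lowest and highest levels were 96.6 and 153 CPM in normoxia + DMSO (median 142), 110 and 149 in normoxia + ITE (median 130), 93.9 and 155 in hypoxia + DMSO (median 137) and 78.7 and 163 in hypoxia + ITE (median 116). All groups overlapped. The log2 change was -0.029 for hypoxia with DMSO (interval -0.33 to 0.28) and -0.14 for hypoxia with ITE (interval -0.45 to 0.16). The value with DMSO was positive in 8 of 34 alternative fits and that with ITE in 1.

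The balance of the main alpha subunits was compared within each library as the log2 ratio of EPAS1 to HIF1A counts (pseudocount 0.5). It was -0.93 ± 0.24 in normoxia + DMSO, -1.01 ± 0.24 in normoxia + ITE, -0.79 ± 0.17 in hypoxia + DMSO and -0.79 ± 0.22 in hypoxia + ITE (SD, n = 6 each). The ratio was 0.14 higher in hypoxia with DMSO (two-sided exact permutation p = 0.30, adjusted over 4 comparisons 0.59) and 0.22 higher with ITE (exact permutation p = 0.12, adjusted 0.47). ITE altered it by -0.085 in normoxia (exact permutation p = 0.54, adjusted 0.72) and by 0.0020 in hypoxia (exact permutation p = 0.98, adjusted 0.98). None of the 4 comparisons had an adjusted p under 0.05 in this permutation test, where the smallest p the design allows is 0.00217.

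HIF3A encodes the alpha subunit whose splice forms include inhibitors of the others. It lies at chr19:46800299-46846690 on the plus strand. It was at 0 in 20 libraries, and the other 4 held 1, 1, 2 and 1 counts (normoxia + DMSO replicate 2 and hypoxia + ITE replicates 2, 3 and 4). The 5 counts among 496748449 gave 0.0101 CPM on raw totals over all libraries (exact Poisson interval 0.00327 to 0.0235).

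VHL lies at chr3:10183462-10195351 (plus strand, 3 exons), and an unnamed antisense lncRNA spans 3341 of its 4414 exonic bases. Reads from the transgene and from the endogenous gene cannot be told apart in these counts. VHL was uniform in normoxia, with 168, 169, 172, 172, 182 and 189 CPM with DMSO and 166, 175, 183, 185, 196 and 203 CPM with ITE. In hypoxia + DMSO it was 147, 155, 169, 174, 198 and 236 CPM, and the highest value came from replicate 1. In hypoxia + ITE it was 164, 167, 212, 219, 293 and 701 CPM, where replicate 6 gave 701 and replicate 3 gave 293. The most deviating libraries were those with the lowest TMM factors. Their part in the result was not tested beyond leaving them out.

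The fitted log2 change of VHL was 0.033 for hypoxia with DMSO (interval -0.45 to 0.51) and 0.66 for hypoxia with ITE (interval 0.19 to 1.14, edgeR adjusted p = 0.11). ITE in hypoxia gave 0.70 (interval 0.22 to 1.19, edgeR adjusted p = 0.49). Without hypoxia + ITE replicate 6 these last values became 0.19 (interval -0.058 to 0.43) and 0.24 (interval -0.012 to 0.49). Without all 3 low-factor libraries hypoxia with ITE gave 0.031 (interval -0.15 to 0.21). The estimate thus came largely from 1 library. VHL was called in hypoxia with ITE where replicate 4 or replicate 5 of hypoxia + ITE was left out (log2 0.78, edgeR adjusted p = 0.042, and 0.79, 0.037), which are fits that keep replicate 6.

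**Figure D3:**
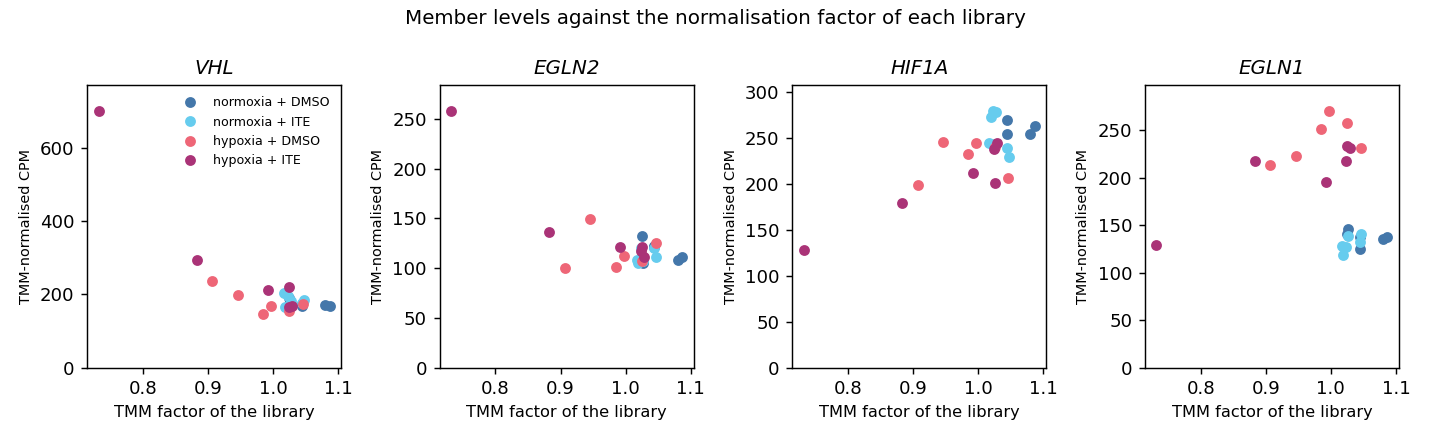
TMM-normalised CPM of VHL, EGLN2, HIF1A and EGLN1 (linear axes from 0) against the TMM factor of each of the 24 libraries, coloured by group. The library at a factor of 0.732 has the highest VHL (701 CPM) and EGLN2 (258 CPM) and the lowest HIF1A (128 CPM), and EGLN1 separates hypoxic from normoxic libraries at factors above it.

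HIF1AN lies at chr10:102288829-102319755 (plus strand, 8 exons). It was even in 3 groups, at 61.7 to 76.1 CPM in normoxia + DMSO (median 72.2), 71.6 to 76.4 in normoxia + ITE (median 72.5) and 65.9 to 81.7 in hypoxia + ITE (median 71.5). It was more dispersed in hypoxia + DMSO, at 38.5 to 77.1 CPM (median 62.5), where the lowest value rested on 28 counts in the shallowest library. The next lowest, 47.1 CPM on 212 counts, came from replicate 1, a low-factor library (TMM factor 0.907). The log2 change was -0.21 for hypoxia with DMSO (interval -0.45 to 0.031, edgeR adjusted p = 0.60) and -0.021 for hypoxia with ITE (interval -0.26 to 0.22), and GC and length offsets turned these to 0.0017 and 0.15. ITE in hypoxia gave 0.25 (interval 0.0092 to 0.49, edgeR adjusted p = 0.51).

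CITED2 lies at chr6:139692944-139695785 (minus strand, 2 exons), within an unnamed antisense lncRNA. Its lowest, median and highest levels were 223, 280 and 339 CPM in normoxia + DMSO, 214, 287 and 351 in normoxia + ITE, 241, 277 and 333 in hypoxia + DMSO and 233, 274 and 312 in hypoxia + ITE. Replicate 5 was the lowest in each of the 4 groups. No hypoxic change was detected at 6 h: the log2 value was 0.0078 with DMSO (interval -0.25 to 0.27), -0.080 with ITE (interval -0.34 to 0.18) and -0.036 on average (interval -0.22 to 0.15). The sign with DMSO was positive in 23 of 34 alternative fits. The upper bound of the averaged interval lies below the EGLN1 interval of 0.57 to 0.90.

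**Figure D4:**
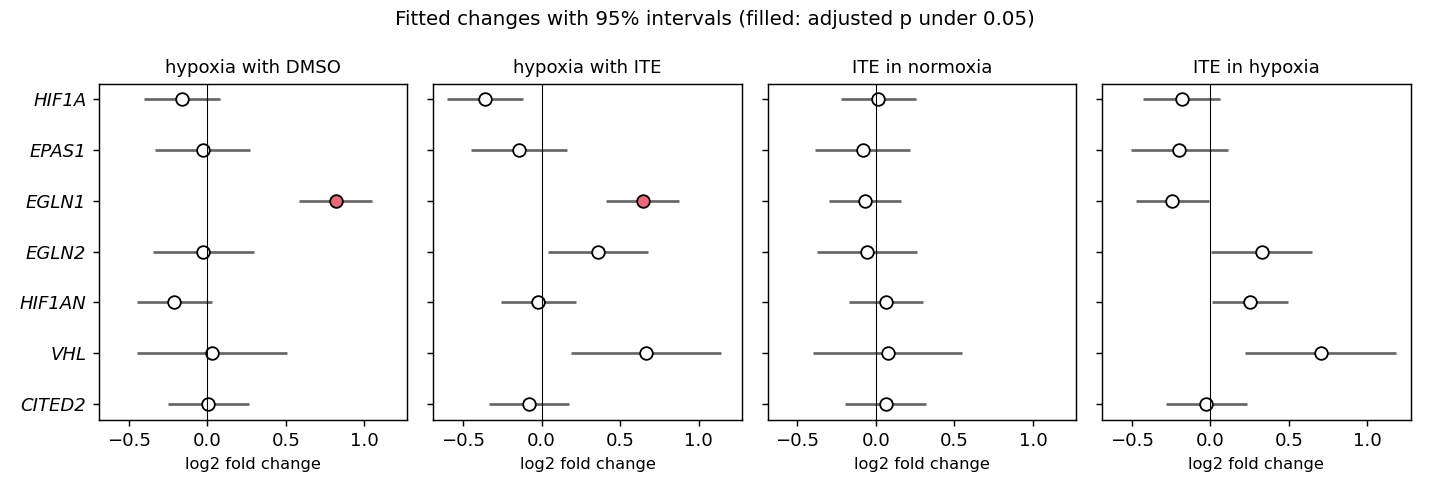
Fitted log2 fold changes (points) with 95% intervals (bars) of the 7 tested members in 4 comparisons, from the edgeR fit to all 24 libraries, filled where the adjusted p is under 0.05. EGLN1 is filled in both hypoxia panels (0.82 with DMSO, 0.65 with ITE), and no member is filled in either ITE panel.

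No member was called for ITE. In normoxia the 7 members had log2 changes from -0.084 (EPAS1) to 0.075 (VHL), where 0.0511% of all genes were called, and 0 members had an unadjusted p under 0.05, as 1.46% of all genes did. In hypoxia they ran from -0.24 (EGLN1) to 0.70 (VHL), where 0.0597% of genes were called, and 4 members (EGLN1, EGLN2, HIF1AN and VHL) had an unadjusted p under 0.05, as 9.56% of all genes did. In hypoxia + ITE replicate 6, EGLN1 was the lowest of its group and EGLN2 and VHL the highest. Over 34 alternative fits EGLN1 ran from -0.28 to -0.14 and EGLN2 from 0.014 to 0.40. HIF1AN ran from 0.11 to 0.34 and VHL from 0.19 to 0.83. Averaged over oxygen levels 0.119% of genes were called and again 0 members were, with 1 unadjusted p under 0.05 (VHL), as for 3.83% of all genes. For the interaction, edgeR called 0 genes, 0% of those tested, with 374 (3.19%) at an unadjusted p under 0.05. DESeq2 and limma-voom also called 0, and 0 members had an unadjusted p under 0.05.

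Between genes, levels were set per kilobase of the canonical transcript (CPM per kb). In normoxia + DMSO the median was 117 for CITED2, 64.5 for HIF1A, 55.3 for EGLN2, 39.0 for VHL, 31.8 for EGLN1, 27.5 for EPAS1 and 5.59 for HIF1AN. The ranges of HIF1A and EGLN2 overlapped, as did those of EGLN1 and EPAS1, while the other neighbours did not. By transcript length this order held in 11 of the 12 normoxic libraries. In hypoxia + DMSO EGLN1 reached a median of 55.7 CPM per kb, beside 59.9 for HIF1A and 52.2 for EGLN2. The order depends on the length used. The HIF1AN value rests on a long annotated transcript of 12927 bases, and its median per kb of coding sequence was 69.0 in normoxia + DMSO. By that measure CITED2 had 345, VHL 269, EGLN1 108, HIF1A 103, EGLN2 95.1 and EPAS1 54.4. For VHL the annotated transcript of 4414 bases was used. The length of the transgene transcript is not given in the sources used here. HIF1A was 2.46 times EPAS1 per kb of transcript in normoxia + DMSO and 2.27 times in hypoxia + DMSO (medians of the within-library ratios).

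The proteins that work with the members were examined in 3 lists. Of the 4 partners of VHL in its ubiquitin ligase, 0 were called in hypoxia averaged over treatments, where 5.01% of all genes were, with a median log2 change of 0.22 against 0.012 for all genes. The nearest were RBX1, the RING subunit (0.36 ± 0.11 SE, edgeR adjusted p = 0.056), and TCEB2, which encodes elongin B (0.69 ± 0.24 SE, edgeR adjusted p = 0.079). Without hypoxia + ITE replicate 6 RBX1 was called (0.35, edgeR adjusted p = 0.040) and TCEB2 gave 0.30 (edgeR adjusted p = 0.11), and without the 3 low-factor libraries neither was called (0.17 and 0.081). TCEB2 was at 904 CPM in hypoxia + ITE replicate 6, the library that stood out for VHL, and the next highest in that group was 270 CPM. Of the 5 dimer partners and coactivators, 0 were called and the median was -0.18, with ARNT, the shared beta subunit of HIF and AHR, at -0.19 ± 0.11 SE (edgeR adjusted p = 0.27).

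Of 13 genes whose products modify HIF alpha, EGLN or VHL proteins, 1 rose and 1 fell, in a comparison in which 5.01% of all genes were called, and the median was 0.15. SIAH2, a ubiquitin ligase that targets EGLN proteins, rose by 0.43 ± 0.11 SE (edgeR adjusted p = 0.015). Its medians were 41.3 CPM in normoxia + DMSO, 41.0 in normoxia + ITE, 62.6 in hypoxia + DMSO and 52.7 in hypoxia + ITE. SENP1, a SUMO protease that acts on HIF-1 alpha, fell by 0.34 on the log2 scale (SE 0.095, edgeR adjusted p = 0.034), with medians of 25.8, 24.6, 19.6 and 19.5 CPM in the same order. Without the 3 low-factor libraries SIAH2 gave 0.49 (edgeR adjusted p = 4.11e-05) and SENP1 -0.29 (edgeR adjusted p = 0.040). In the other 6 comparisons the main fit called 0 genes of these 3 lists. For hypoxia with DMSO, SIAH2 was called without hypoxia + ITE replicate 6 (0.57, edgeR adjusted p = 0.0021). It was also called there without the 3 low-factor libraries (0.52, edgeR adjusted p = 0.0022). For hypoxia with ITE it was called without those 3 libraries (0.45, edgeR adjusted p = 0.017), but not without replicate 6 alone (0.41, edgeR adjusted p = 0.057).

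The genes most like a member were taken as those with the highest Pearson r of log2 CPM over the 24 libraries, as a description. Because the libraries share treatments and composition, these values carry no test. EGLN1 was most like PFKFB3 (0.960), PLOD2 (0.956) and BHLHE40 (0.954), each of which is a known hypoxia-responsive gene. After the group means were removed its nearest genes were MAT2A (0.928), ARIH1 (0.917) and GFM1 (0.894). VHL was most like TCEB2 (0.973), NDUFB7 (0.966) and PPP4C (0.966), and after removal of group means like TCEB2 (0.975), NDUFV1 (0.974) and PPP4C (0.970). VHL and TCEB2 were both highest in hypoxia + ITE replicate 6 (701 and 904 CPM), and their r without that library was not computed. Between members, VHL had an r of 0.850 with EGLN2 and -0.866 with HIF1A, pairs that hypoxia + ITE replicate 6 sets apart. CITED2 was most like SLC22A2 (0.810) and DOCK11 (0.804), or CRISPLD2 (0.846), KCNIP1 (0.840) and DPYSL5 (0.839) within groups. EGLN3 was most like COL1A1 (0.630), TTN (0.534) and AKAP17A (0.474), values that rest on normoxia + DMSO replicate 4, and within groups like COL1A1 (0.601), TPM2 (0.538) and TTN (0.508).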

How the data were processed

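PolyA RNA of RCC4+VHL cells was sequenced in 24 libraries (4 groups of 6, grouped by the sample labels). Per the labels and methods, the authors trimmed reads with Trim Galore 0.3.3, aligned them to GRCh37 with HISAT2, removed fragments that did not map uniquely with Picard 2.0.1 and deposited raw counts per gene symbol from HTSeq 0.5.4p3. The deposited counts are not normalised. The strand setting of the counting is not given in the sources used here. The directional kit would allow antisense reads to be told apart only if that setting matched it.

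Counts were analysed in R 4.3.3 with the packages edgeR 4.0.16 for the main test and DESeq2 1.42.0 and limma 3.58.1 for alternatives. Of 23106 symbols, 11735 passed filterByExpr (minimum count 10). Libraries were scaled by TMM, all 24 entered a single quasi-likelihood fit with a mean for each group, and two-sided p-values were adjusted by Benjamini-Hochberg over all genes tested (threshold 0.05). Log2 CPM used a prior count of 2. The 7 comparisons were ITE in normoxia and in hypoxia, hypoxia with DMSO and with ITE, their interaction, and both averages. Each of the separate hypoxia comparisons shares a group with each of the separate ITE comparisons. Hypoxia with DMSO and ITE in normoxia share the normoxia + DMSO libraries. Hypoxia with ITE and ITE in hypoxia share the hypoxia + ITE libraries, replicate 6 among them, so their values are not separate support. The EPAS1 to HIF1A ratio was tested by exact permutation of 6 against 6 libraries. A planned EGLN3 to EGLN1 ratio was not run, because EGLN3 was 0 in 20 libraries. In bulk RNA, fewer expressing cells and less RNA per cell cannot be told apart.

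Library totals of 770094 to 93851342 counts set the precision. Positions, transcript lengths and GC content came from a GENCODE annotation on GRCh37, and promoter windows from RefSeq (GRCh38.p14), placed on GRCh37 by exact match. The scripts were tested on simulated data. The members and lists were chosen with earlier results of these data known. All members are described. From each other list at most 4 genes are named by the smallest adjusted p in averaged hypoxia, and the most similar genes were the 3 with the highest r, of which 1 is not reported here. Alternatives were another scaling, other filters, DESeq2, limma-voom, a replicate block, only the compared groups, each library left out, and, chosen after seeing the data, GC and length offsets and leaving out the 3 libraries of lowest TMM factor.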

Additional observations from a re-analysis of the deposited data

Results flagged for a closer look

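Among 33 sets of 6 libraries (a member or the EPAS1 to HIF1A ratio in 1 group), 4 had a highest or lowest library whose gap to the next exceeded Dixon's 95% critical value of 0.625 times the range. A further 7 sets, of HIF3A and EGLN3, held no count of 3 or more and were not examined. Chance flags about 1 in 20 sets. Of the 4, 3 were among the 32 sets without EGLN3 (1.6 expected by chance), all in hypoxia + ITE replicate 6, the library with the lowest TMM factor. EGLN1 was lowest there, at 128.9 CPM with the next at 195.3 CPM. EGLN2 was highest, at 258.3 CPM with the next at 136.4 CPM. VHL was highest, at 700.8 CPM with the next at 292.9 CPM. The fourth was EGLN3 in normoxia + DMSO replicate 4, at 3.572 CPM with the other 5 libraries at 0 CPM, a set that was examined only because of that library and in which the gap equals the range by construction. The causes were not tested.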

How the results depend on the processing

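EGLN1 stayed called in hypoxia in all 34 fits with DMSO (log2 0.78 to 0.93), all 34 with ITE (0.61 to 0.77) and all 33 averaged (0.71 to 0.84). With the 2 groups alone its edgeR adjusted p with ITE was 0.043. The shallowest library (770094 counts) limits HIF1AN most (28 counts). The number of members called changed through HIF1A and VHL. In hypoxia with ITE it was 2 with DESeq2 and 1 to 3 with a library left out. In averaged hypoxia it was 2 with DESeq2, 2 with limma-voom, 2 without the 3 libraries of lowest TMM factor, and 1 to 2 with a library left out (2 without hypoxia + ITE replicate 4, 5 or 6). Calls over all genes moved by more than 1.5 times: hypoxia with DMSO had 152, from 143 to 840 over the other alternatives (most with limma-voom) and 303 without hypoxia + ITE replicate 6. Hypoxia with ITE had 276, from 85 (2 groups alone) to 677 (DESeq2), and 159 to 811 with a library left out (most without hypoxia + ITE replicate 5). Averaged hypoxia had 588, from 479 to 1533 (most with limma-voom) and 412 to 1021 with a library left out. ITE in normoxia had 6, from 5 to 112, ITE in hypoxia 7, from 1 to 9, and averaged ITE 14, from 14 to 61.

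The replicate numbers did not meet the rule for pairing (every pair over 0.1), with a hint of pairing: the correlation of same-numbered deviations was over 0.1 in 5 of 6 pairs between normoxia + DMSO and normoxia + ITE (mean 0.237, against -0.05 for other numbers) and in 2 to 4 of 6 elsewhere, and 5 of 6 libraries in the former correlated best with their own number. Of 7 members, all 6 pairs went 1 way only for EGLN1 and HIF1A in hypoxia and HIF1AN for ITE in hypoxia. The share of genes was not counted. With the replicate block HIF1A in averaged hypoxia (-0.26, edgeR adjusted p = 0.080) and HIF1AN for ITE in hypoxia (0.26, 0.58) were not called. EGLN1 gave 0.82 (DMSO) and 0.64 (ITE). The number of members called in each comparison was the same, and calls over all genes in averaged hypoxia went from 588 to 668. For the ratio, an exact sign-flip test in these pairs gave adjusted p of 0.25 to 0.97.

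Signs changed only for values that were not called, and the causes were not tested. The values below cover 3 of the 24 left-out libraries. Over all 24, the sign was positive in 27 of 33 fits for CITED2 in averaged ITE, 7 of 34 for CITED2 in ITE in hypoxia and 29 of 34 for HIF1A in ITE in normoxia. For ITE in normoxia, GC and length offsets turned HIF1A to -0.015 and EGLN2 to 0.051, and with the replicate block to -0.019 and 0.050. For hypoxia with DMSO, CITED2 became -0.0018 with no filter, -0.049 with limma-voom, -0.026 without the 3 libraries, -0.0027 with the 2 groups alone, and -0.041 to -0.0012 with a library left out. EPAS1 became 0.010 with limma-voom, 0.14 with the offsets, 0.15 with offsets and block, and 0.039 without the 3 libraries. VHL became -0.085 with limma-voom and -0.085 without the 3 libraries. EGLN2 became 0.039 with the offsets and 0.034 with offsets and block, and HIF1AN 0.0017 with the offsets. For hypoxia with ITE, HIF1AN became 0.15 with the offsets and 0.14 with offsets and block, and EPAS1 0.0073 without the 3 libraries. For ITE in hypoxia, CITED2 became 0.043 with limma-voom, 0.057 without the 3 libraries, and -0.026 to 0.023 with a library left out. For the interaction, EGLN2 became -0.032 with the offsets and -0.027 with offsets and block, and CITED2 0.0039 without the 3 libraries. For averaged hypoxia, VHL became -0.035 with limma-voom and -0.027 without the 3 libraries, EPAS1 0.020 with the offsets, 0.024 with offsets and block and 0.023 without the 3 libraries, and HIF1AN 0.076 and 0.064 with the offsets and with offsets and block. Averaged ITE gave -0.022 for EGLN2 without the 3 libraries. The ratio for ITE in hypoxia was -0.048 without the 3 libraries and -0.017 to 0.0020 with a library left out.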
